A study of Rattus norvegicus with 12 samples.

Results

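Aminoacyl-tRNA synthetases are the enzymes that join each amino acid to its own tRNA, the first step of protein synthesis. The genes described here are those whose symbols follow the synthetase naming pattern, together with the phenylalanine subunits Farsa and Farsb and the scaffold genes Aimp1 and Aimp2. Of the 17268 genes in the count table, 32 such genes are described as members. Of these, 16 encode cytosolic enzymes, 14 encode mitochondrial enzymes and 2 encode scaffold proteins. A final 2 in the symbol marks a mitochondrial enzyme, except in Aimp2, which is a cytosolic scaffold. Tars3 is a second cytosolic threonine enzyme.

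The libraries came from the cerebral cortex of 12 adult male Sprague Dawley rats, 3 per group and 1 library per rat. Sham rats had surgery without a clot. Model rats received a preformed blood clot in the middle cerebral artery and no treatment. rt-PA rats had the same embolic stroke and were given 10 mg/kg of recombinant tissue plasminogen activator, a clot-dissolving enzyme, 6 h later. rt-PA+Acu rats had the stroke, Xingnao Kaiqiao acupuncture at 2 h and the same rt-PA at 6 h. No group received acupuncture without rt-PA, so acupuncture was measured only on top of rt-PA. The hour of tissue collection and the hemisphere sampled for RNA are not given in the sources used here. The clot came from a donor rat. Total counts per library lay between 11678450 and 13616935.

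Cytosolic synthetases charge tRNAs for the translation of nuclear messages, and several of them sit together in a multi-synthetase complex held by scaffold proteins. Mitochondrial synthetases are separate nuclear genes whose products charge the tRNAs of the mitochondrial genome. Many cytosolic synthetase genes are known targets of ATF4, the transcription factor of the integrated stress response, which binds a C/EBP-ATF composite element. Shortage of an amino acid, endoplasmic reticulum stress and mitochondrial stress all raise ATF4. In brain, inherited defects of mitochondrial synthetases often cause disease of the white matter.

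Promoters were read from RefSeq for the GRCr8 build, as 250 bases before and 50 after each annotated start. Promoters of 30 of the 32 members were examined. The composite element was searched as TGATGCAA and its reverse complement TTGCATCA. It was present in 5 of the 14 cytosolic promoters, in 0 of the 14 mitochondrial promoters and in 0 of the 2 scaffold promoters. Of all 33468 promoters searched 0.792% held it, and of those of genes tested in Model vs Sham 0.523% did. The 5 matches are shown, each with up to 11 bases on either side and the element in capitals, because 4 of them belong to the cytosolic genes with the largest rises described next. Every sequence is written 5′ to 3′ in the direction of its gene.
Iars1, chr17:15193658-15193687, minus strand: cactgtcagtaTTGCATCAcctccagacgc
Mars1, chr7:65023752-65023781, minus strand: gcccgttccggTTGCATCAgcgtgggctcc
Nars1, chr18:60275778-60275807, minus strand: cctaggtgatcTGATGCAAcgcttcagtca
Tars1, chr2:62114811-62114840, minus strand: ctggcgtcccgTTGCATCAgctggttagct
Yars1, chr5:146820190-146820212, plus strand: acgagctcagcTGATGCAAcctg

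Counted from the annotated start, the first base of the element lay at -24 in Iars1, -17 in Mars1, -14 in Nars1 and -27 in Tars1. In Yars1 it lay at 39, inside the transcript. The element ran in the direction of the gene in Nars1 and Yars1 and in the opposite direction in the other three. The whole promoter of Nars1 (chr18:60275733-60276032, minus strand) is given to show the wider context of an element close to the start.
Nars1: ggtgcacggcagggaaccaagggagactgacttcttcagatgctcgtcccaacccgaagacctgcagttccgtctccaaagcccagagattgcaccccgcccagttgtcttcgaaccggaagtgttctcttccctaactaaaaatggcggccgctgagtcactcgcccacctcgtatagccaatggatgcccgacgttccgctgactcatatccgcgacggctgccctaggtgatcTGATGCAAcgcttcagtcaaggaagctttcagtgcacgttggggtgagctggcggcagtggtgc
A second motif, that of the factor NRF1, which serves many mitochondrial and housekeeping genes, was searched on both strands. It was present in 3 of 14 cytosolic promoters (Farsb, Sars1, Tars1) and in 3 of 14 mitochondrial promoters (Iars2, Pars2, Wars2), against 8.85% of the promoters of tested genes. A match shows only that these letters occur in the window.

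Embolic stroke was accompanied by a rise of nearly the whole cytosolic family. In Model vs Sham, 18 of the 32 members were higher and 4 were lower at an adjusted p under 0.05, by the quasi-likelihood test of edgeR with p-values adjusted over 12884 genes (Benjamini-Hochberg). The background was 27.3% of tested genes higher and 26.6% lower. The 18 were 15 of the 16 cytosolic enzymes, both scaffold genes and the mitochondrial arginine enzyme Rars2. The median log2 fold change was 0.86 over the cytosolic genes and -0.19 over the mitochondrial genes, against 0.01 over all genes tested. A rise of more than 2-fold was reached by 8 members, against 9.43% of tested genes. These were Yars1, Rars1, Aars1, Mars1, Sars1, Aimp1, Tars1 and Nars1. Of the 7 cytosolic enzymes of that set, the promoters of 5 were examined, and 4 held the composite element. Among these 5, Sars1 had no match. Of the other cytosolic enzymes, 1 of 9 held it. These sets were formed by the fold changes of these data, and the part of the element in the rises was not tested.

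Yars1, which charges tRNA with tyrosine, measured 75.4, 73.3 and 77.3 CPM in the Sham libraries, where CPM is the count of a gene scaled to the size of its library. It measured 214, 217 and 173 CPM in Model, 182, 169 and 192 CPM in rt-PA, and 79.6, 80.1 and 151 CPM in rt-PA+Acu. All Model libraries lay far above all Sham libraries, and the third rt-PA+Acu library lay well above the other two. The log2 fold change of Model over Sham was 1.43 (SE 0.11, edgeR adjusted p = 3.73e-05), or 2.69-fold.

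Rars1, the arginine enzyme and a member of the multi-synthetase complex, measured 34.1, 42.6 and 36.9 CPM in Sham and 106, 98.8 and 88.4 CPM in Model. The groups were well separated, with a log2 fold change of 1.38 (SE 0.12, edgeR adjusted p = 5.64e-05). Aars1, the alanine enzyme, measured 224, 219 and 230 CPM in Sham and 537, 517 and 464 CPM in Model. Its log2 fold change was 1.18 (SE 0.09, edgeR adjusted p = 3.17e-05). Mars1 charges the methionine tRNAs, including the initiator with which every cytosolic protein begins. It stood at 102, 98.4 and 91.3 CPM in Sham and at 219, 208 and 214 CPM in Model, with a log2 fold change of 1.14 (SE 0.08). Sars1, the serine enzyme, had nearly equal Sham values of 165, 164 and 163 CPM. Its Model values were 367, 366 and 339 CPM, a log2 fold change of 1.13 (SE 0.08, edgeR adjusted p = 2.50e-05), the smallest adjusted p of the members.

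The remaining cytosolic rises over 2-fold were of the threonine enzyme Tars1 and the asparagine enzyme Nars1. Tars1 measured 61.3, 60.2 and 57.6 CPM in Sham and 158, 118 and 112 CPM in Model, with Model libraries that differed more among themselves than in the other genes named so far. Its log2 fold change was 1.12 (SE 0.14). Nars1 measured 186, 201 and 217 CPM in Sham and 450, 450 and 374 CPM in Model, with a log2 fold change of 1.09 (SE 0.10).

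Smaller rises passed the same test in 8 more cytosolic genes. Farsb, the beta subunit of the phenylalanine enzyme, rose by 0.86 and the histidine enzyme Hars1 by 0.85 on the log2 scale. Iars1 (isoleucine) rose by 0.73, Vars1 (valine) by 0.69, Wars1 (tryptophan) by 0.68 and Lars1 (leucine) by 0.54. Farsa, the alpha subunit of the phenylalanine enzyme, rose by 0.51. Tars3, the second threonine enzyme, rose by 0.37 (SE 0.10). In each of these the 3 Model libraries lay above the 3 Sham libraries, as they did in 32.1% of all genes tested. Lars1 was nearly constant in Sham, at 88.8, 88.9 and 89.0 CPM, and measured 119, 143 and 124 CPM in Model.

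Qars1, the glutamine enzyme, was the 1 cytosolic gene that did not pass. It measured 77.3, 78.1 and 81.3 CPM in Sham and 85.9, 85.0 and 83.7 CPM in Model. The groups did not overlap, but the log2 fold change was 0.11 with a 95% interval of -0.06 to 0.29 (edgeR adjusted p = 0.245). The intervals of all other cytosolic genes except Tars3 began at or above 0.29.

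The scaffold genes moved with the enzymes. Aimp1, whose product is also secreted as a cytokine precursor, measured 31.5, 39.6 and 30.6 CPM in Sham and 80.1, 81.0 and 60.5 CPM in Model, a log2 fold change of 1.13 (SE 0.15). Aimp2, which holds the complex together, measured 16.6, 16.5 and 13.7 CPM in Sham and 28.4, 32.4 and 25.5 CPM in Model, a log2 fold change of 0.89 (SE 0.15). Eef1e1, which encodes the remaining scaffold of the complex and lies outside the naming rule, rose by 1.04 (SE 0.11). Of the 7 complex genes among the members, 6 were higher in Model, with a median of 0.89 on the log2 scale over the 7.

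**Figure D1:**
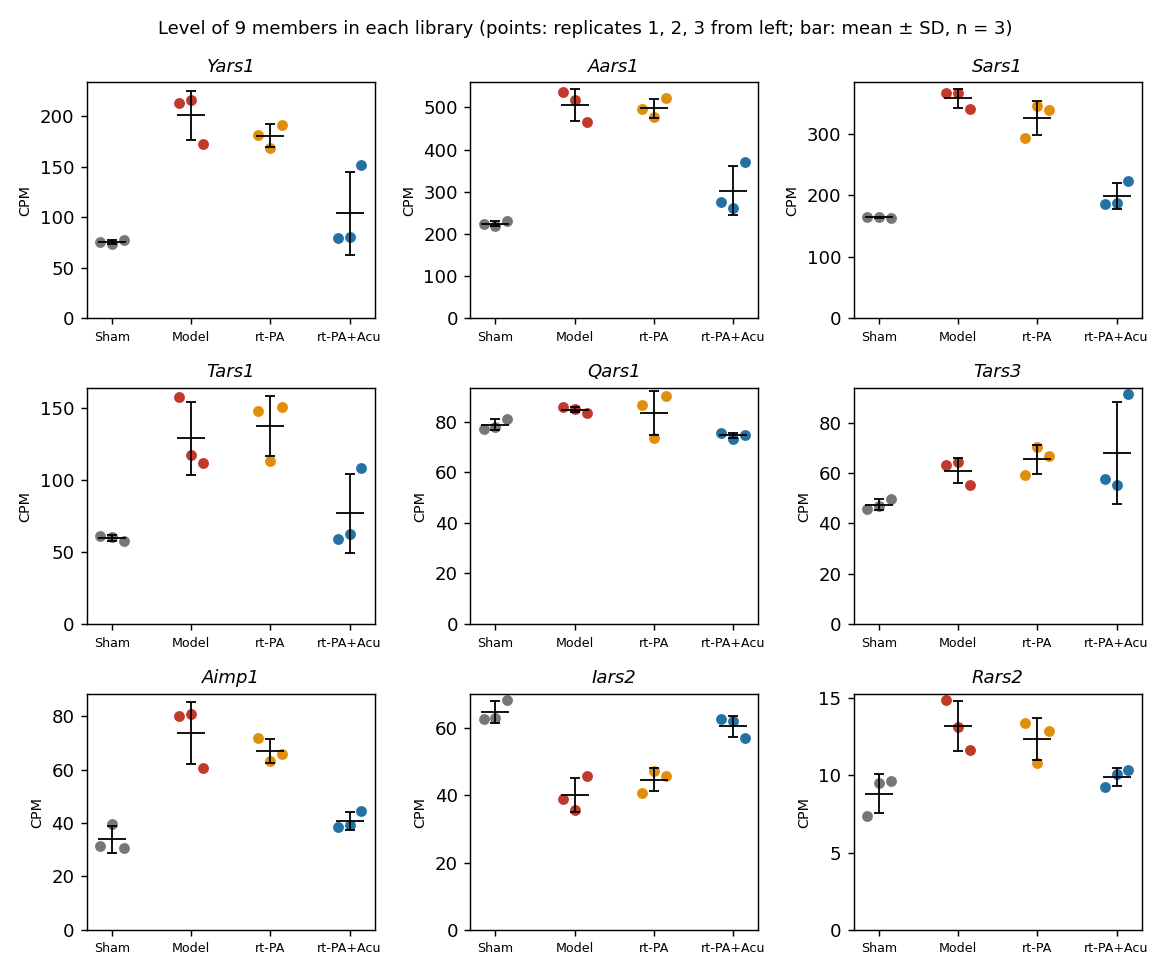
TMM-scaled CPM (y axis, from 0) of 9 members in each of the 12 libraries, with replicates 1, 2 and 3 from left to right in each group and the mean ± SD (n = 3). Yars1, Aars1, Sars1, Tars1 and Aimp1 are high in Model and rt-PA, Qars1 varies little, Iars2 is low in Model and rt-PA, and Rars2 is higher there than in Sham.

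Most mitochondrial enzymes did not pass the test. Of 14, 1 was higher, 4 were lower and 9 were not called in Model vs Sham. The share that was lower is close to the 26.6% of all genes tested. Rars2, which charges mitochondrial tRNA with arginine, was the 1 that rose, from 7.36, 9.49 and 9.61 CPM in Sham to 14.9, 13.1 and 11.6 CPM in Model. Its log2 fold change was 0.59 (SE 0.18, edgeR adjusted p = 0.0249). It was not called without Model replicate 1 or 2 or Sham replicate 1 or 2, at log2 fold changes of 0.47 to 0.64. Iars2, the isoleucine enzyme, fell from 62.7, 63.0 and 68.3 CPM to 38.8, 35.7 and 45.7 CPM, a log2 fold change of -0.68 (SE 0.11, edgeR adjusted p = 0.0013). The alanine enzyme Aars2 fell by 0.52, the tryptophan enzyme Wars2 by 0.48 and the cysteine enzyme Cars2 by 0.47 on the log2 scale. All 3 Model libraries were below all 3 Sham libraries in each of these, as they were in 31.6% of all genes tested. Ears2, the mitochondrial glutamate enzyme, had a log2 fold change of -0.51 with a 95% interval of -1.11 to 0.09. The number of members called lower depended on single libraries. It was 1 without Sham replicate 2, and 2 without Model replicate 2, Sham replicate 1 or Sham replicate 3. Over all genes the number called also fell in these fits, from 6951 to between 5825 and 5960.

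Mitochondria have no glutamine synthetase of this family. The glutamate enzyme Ears2 loads glutamate on the glutamine tRNA, and an amidotransferase made of the Qrsl1, Gatb and Gatc products then converts it. All 3 subunit genes were lower in Model. Qrsl1 measured 13.8, 13.4 and 10.9 CPM in Sham and 5.95, 5.58 and 7.19 CPM in Model, a log2 fold change of -1.02 (SE 0.19). Gatb fell by 0.95 and Gatc by 0.58 on the log2 scale. Gatc was named after its values were seen. Together with Ears2 these are the genes for the mitochondrial glutamine route, whose cytosolic counterpart Qars1 did not pass the test.

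**Figure D2:**
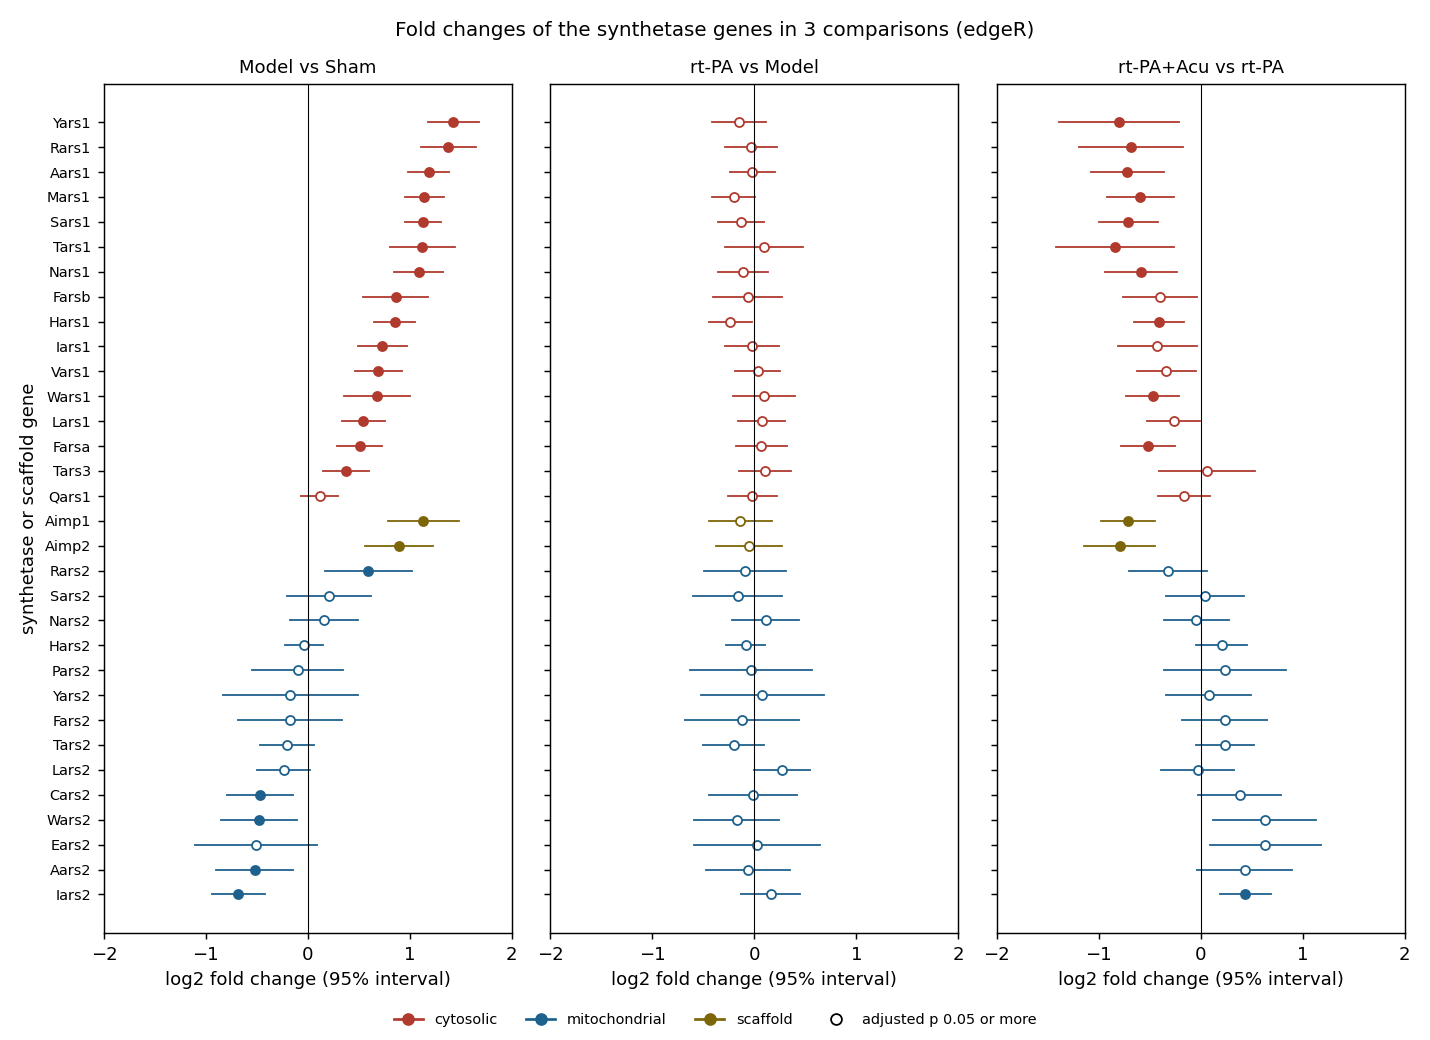
Log2 fold change (x axis) with its 95% interval for each member (y axis, by compartment and by Model vs Sham value) in 3 comparisons, filled where the edgeR adjusted p is under 0.05. Cytosolic and scaffold genes lie right of 0 in Model vs Sham, around 0 in rt-PA vs Model and mostly left of 0 in the panel with acupuncture.

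The 2 structural classes of synthetases, which have unrelated catalytic folds, did not divide the members in the way the compartments did. Of 15 class I genes, 8 were higher and 3 lower in Model vs Sham. Of 15 class II genes, 8 were higher and 1 lower.

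For 11 amino acids both a cytosolic and a mitochondrial enzyme were among the members. The cytosolic gene had the higher log2 fold change in 11 of 11 pairs in Model vs Sham. The phenylalanine pair was taken as Farsa and Fars2. The log2 ratio of cytosolic to mitochondrial CPM within each library was compared next. In 11 of 11 pairs this ratio was higher in all 3 Model libraries than in any Sham library, and likewise in all 3 rt-PA libraries. For isoleucine the log2 ratio of Iars1 to Iars2 ranged from 0.39 to 0.49 in Sham, from 1.47 to 2.07 in Model and from 0.56 to 1.25 with acupuncture. For alanine the log2 ratio of Aars1 to Aars2 ranged from 3.78 to 4.17 in Sham, 5.42 to 5.84 in Model, 5.43 to 5.81 in rt-PA and 4.09 to 5.12 in rt-PA+Acu. With acupuncture the isoleucine range lay between Sham and Model, and the alanine range overlapped Sham. Over the 11 pairs, the rt-PA+Acu range overlapped Sham in 6, lay between Sham and Model in 4 and reached Model in 1, the arginine pair Rars1 and Rars2, at 2.29 to 2.99 against 2.83 to 2.92 in Model. All 3 rt-PA+Acu libraries were below all rt-PA libraries in 9 of the 11. The median log2 ratio over the pairs was 2.28 and 2.29 in rt-PA+Acu replicates 1 and 2 and 2.99 in replicate 3. It was 2.83 to 2.92 in the Model libraries. The pairs differ widely in this ratio, which is not corrected for gene length, and the medians of replicate 3 and of Model were those of the arginine pair. In all other pairs every rt-PA+Acu library, replicate 3 included, lay below every Model library. The members of a pair come from the same libraries, so the counts of pairs are descriptions.

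**Figure D3:**
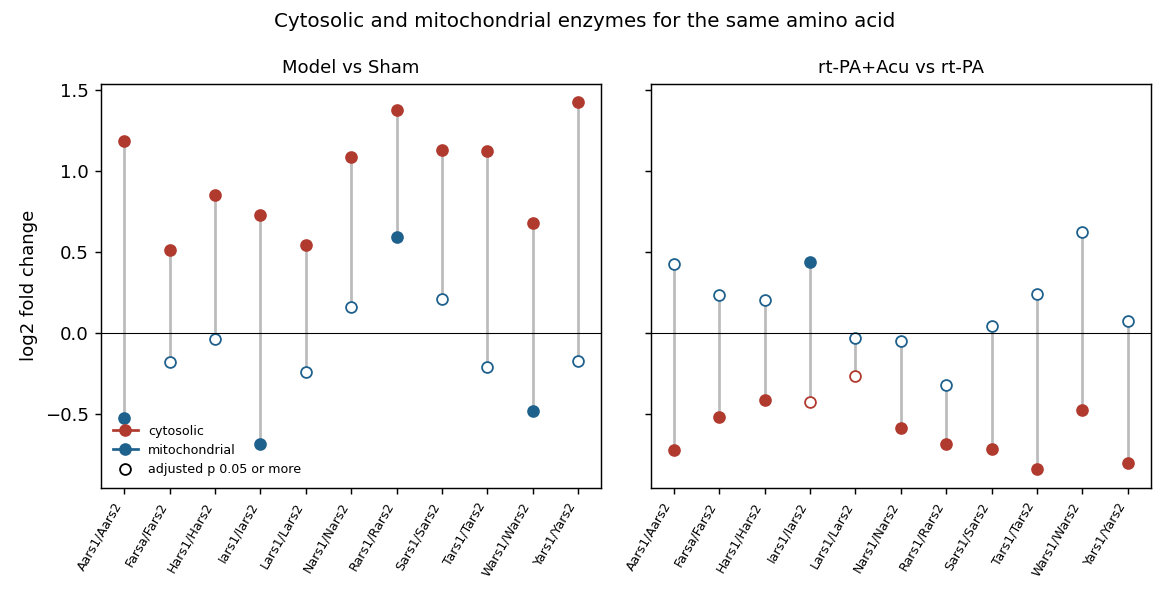
Log2 fold change (y axis) of the cytosolic and mitochondrial enzyme for each of 11 amino acids (x axis), filled where the edgeR adjusted p is under 0.05. The cytosolic point is above its mitochondrial partner in every pair of Model vs Sham and below it in every pair of rt-PA+Acu vs rt-PA.

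The ATF4 pathway and the other genes of tRNA charging were examined beside the synthetases. Of 28 ATF4 pathway genes, 20 were higher and 3 lower in Model vs Sham. Their median log2 fold change was 1.30. The composite element was present in 3 of the 25 promoters examined from this list, those of Chac1, Ppp1r15b and Pycr1. The hormone gene Stc2 rose by 3.76, the pseudokinase gene Trib3 by 3.50, the transcription factor gene Atf3 by 3.33 and the mitochondrial folate enzyme gene Mthfd2 by 2.13 on the log2 scale. The serine synthesis genes Psat1 and Phgdh and the alanine transaminase gene Gpt2 were lower, with log2 fold changes of -1.89, -0.85 and -0.84. Atf4 itself, named after its values were seen, measured 164, 189 and 171 CPM in Sham, 447, 419 and 493 CPM in Model, 441, 372 and 399 CPM in rt-PA and 141, 144 and 181 CPM in rt-PA+Acu. Its message was thus high in both stroke groups without acupuncture and within or below the Sham range with it. The 10 cytosolic synthetases listed as ATF4 targets were all higher in Model, by a median of 1.11 on the log2 scale. Of the other 6 cytosolic synthetases 5 were higher, with a median of 0.68 and a range from 0.11 for Qars1 to 1.38 for Rars1. The lists were chosen with earlier results of these data known, and a part of ATF4 in the synthetase levels was not tested.

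Of 16 tRNA charging partners, 5 were higher in Model and 3 lower, shares near or below the 27.3% and 26.6% of all genes, and the median log2 fold change was -0.017. Trnt1, which adds the CCA end to tRNAs, rose by 0.74 and Xpot, the tRNA export factor, by 0.65 on the log2 scale. The 3 that fell were the amidotransferase subunits. Of 10 elongation factor genes, 8 were higher and 1 was lower. The lower one was Eef2k, the kinase that slows elongation, with a log2 fold change of -1.32, and the rises ranged up to 0.74 for the mitochondrial factor Tsfm. Of 14 amino acid transporters, 5 were higher and 3 lower. The glutamine transporter Slc1a5 rose by 3.78 and the cystine transporter Slc7a11 by 1.19, while the glutamine transporter Slc38a3 fell by 1.74 on the log2 scale. Of 15 genes of mitochondrial translation and transcription, 6 were higher and 0 lower, led by Mrps2 at 0.74. Of 6 interferon response genes tested, 3 were higher, led by Irf1 at 1.56 on the log2 scale. This list was included because Wars1 is induced by interferon gamma in many cells.

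Markers of cell types moved in the same contrast. Of 8 oligodendrocyte markers 7 were lower in Model, of 8 astrocyte markers 6 were lower and Gfap was higher, and of 10 neuron markers 6 were lower and 2 higher. Summed neuron markers ranged from 7727 to 8407 CPM in Sham and from 5500 to 5847 CPM in Model. Summed neutrophil markers ranged from 11.6 to 16.9 CPM in Sham and from 88.2 to 122 CPM in Model. Of the 5 of them tested, 2 were higher and 3 were not called. Most of the Model sum was Mmp9, at 84.0, 77.8 and 105 CPM, against 4.85, 4.29 and 6.55 CPM in Sham. Of 10 microglia and macrophage markers 4 were higher and 5 lower. Of 5 endothelial markers 1 was higher. Summed choroid plexus markers ranged from 0.889 to 2.37 CPM in Sham and from 9.50 to 17.1 CPM in Model. Most of the Model sum was Kl, at 8.47, 16.2 and 7.85 CPM. Kl was the 1 marker tested and was higher, by 4.31 on the log2 scale. Ttr had 0, 3 and 1 counts in the Model libraries, and Folr1 and Sostdc1 had 0 in each. The part of these cell type markers in the synthetase results was not tested. In bulk tissue, fewer cells of a type and less RNA per cell cannot be told apart.

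Of the members, 6 overlap another protein-coding gene in RefSeq. These are Aars1 with Ddx19b, Aimp2 with Eif2ak1, Mars1 with Ddit3, and Rars2 with Orc3 and Slc35a1. Also among the 6 are Sars2 with Ccer2 and LOC103689966, and Yars1 with S100pbp. LOC103689966 is not among the genes counted. The library kit keeps the strand, but the strand setting of the counting is not given in the sources used here. Ddit3, an ATF4 pathway gene, rose by 1.63 on the log2 scale in Model vs Sham, and Eif2ak1 differed by 0.10. Hars1 and Hars2 are close copies of each other, as are Tars1 and Tars3, so that some reads may have been assigned uncertainly.

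rt-PA alone at 6 h was compared with Model to ask whether late thrombolysis changed these genes. None of the 32 members tested was called in edgeR, and 0% of 12941 genes were called higher or lower. At an unadjusted p under 0.05, 0 members were higher and 1, Hars1, was lower, against 5.19% and 4.73% of all genes. DESeq2 called 0 members and 204 genes in all. Hars1 measured 152, 140 and 135 CPM in Model and 120, 115 and 128 CPM in rt-PA, a log2 fold change of -0.23 with a 95% interval of -0.45 to -0.02 (edgeR adjusted p = 0.465). For Yars1 the interval was -0.42 to 0.12 and for Aars1 -0.24 to 0.20, so that changes as large as those of Model vs Sham lay outside both.

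Acupuncture before rt-PA was accompanied by lower cytosolic synthetase levels than rt-PA alone. In rt-PA+Acu vs rt-PA, 12 members were lower and 1 higher in edgeR, against 17.7% and 17% of 12999 genes. The 12 were 10 cytosolic enzymes and both scaffold genes. None of the falls exceeded 2-fold, against 8.16% of genes tested. The median log2 fold change was -0.49 over the cytosolic genes and 0.24 over the mitochondrial genes. The cytosolic gene had the lower log2 fold change in 11 of 11 amino acid pairs. The largest fall in this comparison was of Tars1, which measured 148, 113 and 151 CPM in rt-PA and 59.3, 62.4 and 109 CPM in rt-PA+Acu. This was a log2 difference of -0.84 (SE 0.25, edgeR adjusted p = 0.0346). Sars1 measured 293, 345 and 338 CPM in rt-PA and 186, 187 and 222 CPM in rt-PA+Acu, a log2 fold change of -0.71 (SE 0.12, edgeR adjusted p = 0.00597). Aars1 measured 495, 477 and 522 CPM in rt-PA and 275, 262 and 369 CPM in rt-PA+Acu, a log2 fold change of -0.72 (SE 0.15). In all 3 genes every rt-PA+Acu library lay below every rt-PA library, as was so in 26.5% of all genes tested.

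The other cytosolic falls were of Yars1 at -0.80, Rars1 at -0.68, Mars1 and Nars1 at -0.59 each, Farsa at -0.52, Wars1 at -0.47 and Hars1 at -0.41 on the log2 scale. Aimp2 measured 30.8, 25.7 and 26.4 CPM in rt-PA and 14.1, 15.9 and 17.7 CPM in rt-PA+Acu, a log2 fold change of -0.80 (SE 0.15, edgeR adjusted p = 0.00756). Aimp1 measured 71.8, 63.1 and 65.9 CPM in rt-PA and 38.4, 39.2 and 44.6 CPM in rt-PA+Acu, a log2 fold change of -0.72 (SE 0.11, edgeR adjusted p = 0.00446). Of the 10 synthetases listed as ATF4 targets 7 were lower, and of the other 6 cytosolic synthetases 3 were lower. Tars3 had a log2 fold change of 0.06 with a 95% interval of -0.41 to 0.53.

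Iars2 was the 1 member that passed as higher with acupuncture than with rt-PA alone. Iars2 measured 40.8, 47.3 and 45.8 CPM in rt-PA and 62.5, 61.9 and 56.9 CPM in rt-PA+Acu, a log2 fold change of 0.44 (SE 0.11, edgeR adjusted p = 0.0186). Wars2 had a log2 fold change of 0.63 (adjusted p = 0.0586 in edgeR) and Ears2 of 0.63 (adjusted p = 0.0698 in edgeR), and neither passed. Of the amidotransferase genes that work after Ears2, Qrsl1 was higher, with a log2 fold change of 1.26 (SE 0.21). Gatb had a log2 fold change of 0.50 and Gatc of 0.39, and neither passed.

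Of the 28 ATF4 pathway genes, 6 were lower and 2 higher with acupuncture, which is near the 17.7% of all genes for the lower ones, with a median log2 fold change of -0.53. Atf4 had a log2 fold change of -1.38 (SE 0.14) and Atf3 of -4.25. Psat1, which was lower in Model, was higher here, with a log2 fold change of 1.37. Of 10 elongation factor genes 5 were lower and Eef2k was higher, at 0.59. Of 14 amino acid transporters 4 were lower and 1 was higher, among them Slc1a5 at -2.58 and Slc38a3 at 1.99. Of 16 tRNA charging partners 3 were lower, Eef1e1 with a log2 fold change of -0.66, and 1 was higher, Qrsl1. Of 7 interferon response genes 3 were lower, and of 15 mitochondrial translation genes 1 was lower. All 5 endothelial markers and 5 of 6 neutrophil markers were lower in this contrast. Of 8 astrocyte markers 7 were higher and of 10 neuron markers 6 were higher. Of 8 oligodendrocyte markers 0 were called in edgeR, and 0 at an unadjusted p under 0.05. Summed neutrophil markers ranged from 120 to 152 CPM in rt-PA and from 23.7 to 31.0 CPM in rt-PA+Acu, and Mmp8 was at 0 in all 3 rt-PA+Acu libraries. Kl, the 1 choroid plexus marker tested, was lower, with a log2 fold change of -4.32. Their part in the synthetase results was not tested.

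The third rt-PA+Acu library stood apart from the other two. On the first principal component over 500 genes it lay at -11.4, against -35.5 and -33.5 for replicates 1 and 2, with Sham between -44.9 and -43.8 and Model between 27.6 and 38.9. Summed cytosolic synthetases were 2194 CPM in this library, against 1620 and 1627 CPM in the other two, with 1425 to 1445 CPM in Sham, 2561 to 2963 CPM in Model and 2565 to 2784 CPM in rt-PA. Cell type markers also set it apart. Summed neuron markers were 5329 CPM in replicate 3, below the Model range, against 7889 and 8262 CPM in replicates 1 and 2. Summed oligodendrocyte markers were 3318 CPM, against 21257 and 8888 CPM. The astrocyte gene Gfap measured 4391 CPM, against 2186 and 2181 CPM. The astrocyte markers did not move together. Slc1a2, Slc1a3, Aldh1l1, Gja1 and Aldoc were lowest in replicate 3, Aqp4 was highest there and Sox9 lay in between. The part of these differences in the synthetase levels was not tested. Of the 18 members higher in Model, replicate 3 was the highest rt-PA+Acu library in 18. Its level over the mean of the other two had a median ratio of 1.26, was lowest at 1.07 for Rars2 and was highest for Yars1. It was still below every rt-PA library in 16 of the 18. Without it, 16 members were lower and 3 higher than in rt-PA. The number of lower members was 4 without rt-PA+Acu replicate 2 or rt-PA replicate 1, and 5 without rt-PA+Acu replicate 1 or rt-PA replicate 3. The number of higher members was 0 without any 1 of these 4 libraries. Over all genes, 4522 were called in the main fit and 5417 without rt-PA+Acu replicate 3. Without any 1 of the 4 libraries, 2496 to 2958 were called. The cytosolic median log2 fold change in those 4 fits was -0.51 to -0.44.

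**Figure D4:**
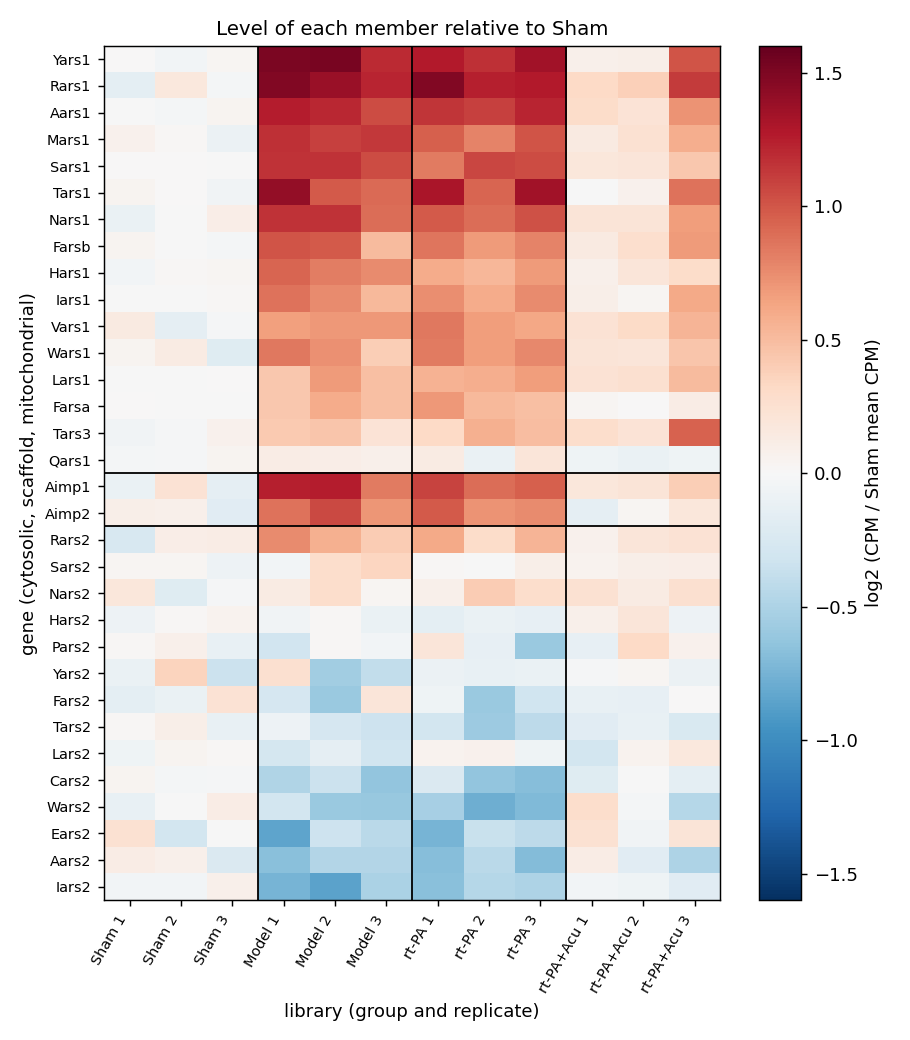
Log2 of CPM over the Sham mean (colour, red high and blue low) for 32 members (y axis, cytosolic, scaffold and mitochondrial blocks) in each of the 12 libraries (x axis). The cytosolic and scaffold blocks are red in Model and rt-PA and pale in rt-PA+Acu replicates 1 and 2, with replicate 3 in between.

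rt-PA+Acu was compared with Sham to ask how far the levels differed from those of rats without stroke. None of the 32 members was called in edgeR, against 1.7% of 12775 genes higher and 3.4% lower. At an unadjusted p under 0.05, 10 members were higher and 0 lower, against 10.3% and 12.9% of genes tested, and DESeq2 called 0 members and 1386 genes in all. The cytosolic median log2 fold change was 0.35, against 0.02 over all genes tested. In 13 of the 16 cytosolic genes all 3 rt-PA+Acu libraries lay above all 3 Sham libraries, against 14.9% of genes tested. The intervals included sizeable differences. For Rars1 the log2 fold change was 0.65 with a 95% interval of 0.15 to 1.15 (edgeR adjusted p = 0.124), and for Aars1 it was 0.43 with an interval of 0.10 to 0.76. The mitochondrial median was -0.021. Without replicate 3 of rt-PA+Acu the cytosolic median was 0.19 and no member was called.

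Against Model, 10 members were lower in rt-PA+Acu and 1 higher in edgeR, against 16.9% and 17.4% of 12855 genes. The lower ones were 8 cytosolic enzymes and both scaffold genes, and the higher one was Iars2. Yars1 fell by 0.96, Sars1 by 0.85 and Mars1 by 0.80 on the log2 scale. Tars1 had a log2 fold change of -0.75 and did not pass (edgeR adjusted p = 0.0523). Iars2 had a log2 fold change of 0.59 (SE 0.13, edgeR adjusted p = 0.0107). The number of lower members was 15 without rt-PA+Acu replicate 3 and 6 without rt-PA+Acu replicate 1, rt-PA+Acu replicate 2 or Model replicate 2. The number of higher members was 2 without rt-PA+Acu replicate 3 and 0 without Model replicate 2. Over all genes, 4411 were called in the main fit and 5257 without rt-PA+Acu replicate 3. Without rt-PA+Acu replicate 1, rt-PA+Acu replicate 2 or Model replicate 2, 2546 to 2841 were called. This comparison shares its rt-PA+Acu libraries with the comparison against rt-PA and its Model libraries with Model vs Sham, so the 3 sets of values are not independent.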

How the data were processed

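Cortical mRNA of 12 rats was sequenced, 1 library per rat. The authors deposited whole-number counts per gene symbol, without normalization or pooling. Per the labels and methods, reads were aligned with STAR to mRatBN7.2 and unique pairs were counted by Salmon on Ensembl genes. The submitters' processing notes name STAR 2.7.10a, featureCounts 2.0.1 and Salmon 1.9.0. The annotation release, the strand setting and the part played by featureCounts are not given in the sources used here. Total counts per library ranged from 11678450 to 13616935, so that 3 counts stood for 0.208 to 0.262 CPM. This equivalent covers counting error only, since reads are not shown to be independent molecules.

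The 6 libraries of each comparison were fitted with edgeR 4.0.16 in R 4.3.3, after filterByExpr and TMM scaling, with the quasi-likelihood test and Benjamini-Hochberg adjustment over all genes tested. A gene was called at an adjusted p under 0.05, and 5 comparisons were made. CPM values are TMM-scaled, and SEs and intervals were derived from the F statistic and so include the spread between rats. Alternatives used DESeq2 1.42.0, other scalings and filters, a single fit over all 12 libraries, a replicate block, a 2-fold threshold and leaving out each library. The fitting code was tested on simulated data. Figures were made with matplotlib 3.10.9 (Python 3.11.15).

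Genes named are the called members of a comparison, up to 8 rises and 8 falls by size, their partners in the other compartment, Aimp1, Aimp2, Tars3 and up to 4 called genes of each pathway list with the largest change in Model vs Sham. Other genes were named after their values were seen. The members and lists were chosen with earlier results of these data known. All 32 members described matched RefSeq by symbol. Of the 34 genes that the rule gave, 2 are not reported here, nor is 1 promoter, but all genes stayed in the fits. No lengths were used, so levels of different genes were not ranked. Ratios within a pair were used only to compare libraries.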

Additional observations from a re-analysis of the deposited data

How the results depend on the processing

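Of 702 values for 54 named member results under the alternatives, 77 kept the direction but lost the call, 7 reversed and the rest kept both direction and call. With a 2-fold threshold added, 8 members were higher and 0 lower in Model vs Sham. Against either rt-PA or Model, rt-PA+Acu then had 0 higher and 0 lower. For rt-PA+Acu vs rt-PA, DESeq2 gave 2 higher and the single fit over 12 libraries 3, and against Model that fit gave 2 higher. Leaving out 1 library gave 16 to 18 higher and 1 to 3 lower in Model vs Sham, 0 to 3 higher and 4 to 16 lower against rt-PA in rt-PA+Acu, and 0 to 2 higher and 6 to 15 lower in rt-PA+Acu vs Model. In the same fits and order, the number called over all genes ranged from 5825 to 7528, 2496 to 5417 and 2546 to 5257. For rt-PA vs Model, and likewise rt-PA+Acu vs Sham, the member counts stayed at 0 under every alternative run. Same-numbered libraries did not deviate together (18 correlations from -0.25 to 0.15, 3 of them over 0.1, and 0 libraries correlating best with their own number). No pairing of rats by number was thus seen, though with 3 libraries per group a weak pairing could be missed. The replicate block gave 17 higher, without Rars2, and 2 lower in Model vs Sham and 6 lower in rt-PA+Acu vs Model. The 7 reversals were of genes that were not called. Against rt-PA, Tars3 in rt-PA+Acu became -0.022 with library size alone, and leaving out 1 library gave -0.21 to 0.19, negative without rt-PA+Acu replicate 3 and, at -0.011, without rt-PA replicate 1. Against Model it lay between -0.11, without rt-PA+Acu replicate 3, and 0.29. Aimp2 lay between -0.14 and 0.040, the latter without Model replicate 2, in rt-PA against Model. For rt-PA+Acu vs Sham it lay between -0.057 and 0.12, with -0.057 without rt-PA+Acu replicate 3 and -0.051 without Sham replicate 3. The cause of these changes was not tested.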
